A study of Mus musculus with 3 samples.

Results

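Interferon-stimulated genes are the genes whose transcription rises when a cell senses an interferon. A list of 39 such genes was followed here among the 31053 genes of single-cell RNA sequencing (scRNA-seq) of tissue around mouse glioblastoma (GBM). The 39 rows were matched by gene symbol, with no use of their measured values, and all 39 were found. Unique molecular identifiers (UMIs), each standing for 1 captured transcript, were summed over the cells of each class in each library, and levels are given as CPM, the conventional depth-scaled count, taken over all UMIs of that class and library. All animals were wild-type C57BL/6 females aged 6 to 8 weeks that carried implanted brain tumor-initiating cells, and tissue within 2 mm of the injection site was taken 4 weeks after implantation. Mice of the niacin group received 100 mg/kg niacin daily by intraperitoneal injection from day 7, and mice of the vehicle control group received saline. The niacin group had 2 libraries (niacin replicates 1 and 2) and the vehicle control group had 1 (vehicle control replicate 2, the vehicle library), each made from pooled brain tissues. The labels give 4 tissues per pool and the study's methods give a different number of mice, so the size of the pools is uncertain. Live cells were sorted before capture. With 1 vehicle library, a difference between treatments and a difference between that pool and the others cannot be told apart, so no test was made of it.

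Interferons fall into types that use different receptors. Type I interferons (alpha and beta) act through IFNAR1 and IFNAR2 and lead to transcription at interferon-stimulated response elements (ISREs), with STAT2 and IRF9 among the factors that act there, while interferon-gamma, made mainly by T cells and natural killer cells, acts through IFNGR1 and IFNGR2 and leads to transcription at gamma-activated sites (GASs). The IFIT proteins, which bind viral RNA, the OAS proteins, which sense double-stranded RNA, and the ubiquitin-like protein ISG15 are known mostly as type I targets. The guanylate-binding proteins (GBPs), which attack the vacuoles of intracellular microbes, and the immunity-related GTPases IRGM1 and IGTP are known mostly as interferon-gamma targets. The division is not strict, since each type also induces many genes of the other. Here 6 genes stood for the type I-type list (Ifit1, Ifit2, Ifit3, Isg15, Oasl2 and Oas2) and 7 for the interferon-gamma-type list (Gbp2, Gbp3, Gbp4, Gbp5, Gbp7, Irgm1 and Igtp). Ifit3, the Oas genes and the Gbp genes have close paralogs, so their counts depend on how reads were divided between copies.

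The DNA just upstream of the genes holds both kinds of element. RefSeq promoter sequences (GRCm38.p6) were at hand for 29 of the 39 genes, and the 250 bases before each annotated start were searched on both strands for the ISRE core GAAANNGAAA and the GAS core TTCNNNGAA. The ISRE core was present at 17 of 29 genes, 58.6%, against 3.46% of 27025 genes with a promoter sequence. The GAS core was present at 7 of 29 genes, 24.1%, against 8.13% of all. Of the 6 interferon-gamma-type genes with a sequence, 6 held the ISRE core and 3 also the GAS core, while of the 5 type I-type genes 3 held the ISRE core and 1 the GAS core. The sequences below were chosen to show ISRE cores alone (Isg15 and Ifit3), both cores in one promoter (Gbp7 and Igtp) and a GAS core alone (Irf1). Each ends at the base before the start site and reads 5′ to 3′ on the strand of the gene, with matches to either core in capitals.
Isg15: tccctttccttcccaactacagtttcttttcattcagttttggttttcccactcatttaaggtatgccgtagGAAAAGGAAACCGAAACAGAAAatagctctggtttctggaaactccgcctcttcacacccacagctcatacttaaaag
Ifit3: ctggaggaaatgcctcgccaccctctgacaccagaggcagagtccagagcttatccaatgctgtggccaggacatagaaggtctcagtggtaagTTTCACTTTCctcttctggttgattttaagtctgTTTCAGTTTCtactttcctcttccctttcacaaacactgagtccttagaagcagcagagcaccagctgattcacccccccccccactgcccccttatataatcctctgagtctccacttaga
Gbp7: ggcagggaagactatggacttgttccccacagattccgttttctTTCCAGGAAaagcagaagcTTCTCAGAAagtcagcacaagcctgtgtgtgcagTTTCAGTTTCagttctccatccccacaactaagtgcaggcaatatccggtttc
Igtp: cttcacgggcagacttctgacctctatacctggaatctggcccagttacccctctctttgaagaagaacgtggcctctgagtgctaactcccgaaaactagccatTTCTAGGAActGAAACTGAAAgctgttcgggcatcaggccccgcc
Irf1: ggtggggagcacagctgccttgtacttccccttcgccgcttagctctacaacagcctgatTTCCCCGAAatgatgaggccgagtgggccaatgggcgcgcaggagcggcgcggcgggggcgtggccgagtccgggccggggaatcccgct
They lie at chr4:156200819-156200968, minus strand (Isg15), chr19:34583279-34583528, plus strand (Ifit3), chr3:142530186-142530335, plus strand (Gbp7), chr11:58199406-58199555, plus strand (Igtp) and chr11:53769864-53770013, plus strand (Irf1), and none overlaps an annotated exon of GENCODE vM21. Isg15 holds 3 overlapping ISRE cores and Ifit3 holds 2 separate ones. In Igtp the GAS core begins 45 and the ISRE core 34 bases before the start, so that the 2 are almost adjacent. A match is a run of letters and not a measured binding site.

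The libraries held 8301228 to 10359526 UMIs over 2145 to 2532 barcodes. Of 5571 distinct barcodes, 924 appeared in more than 1 library, and their highest copy held a median of 15.7 times the UMIs of the second. Only a copy with at least 5 times the UMIs of every other was kept, which left 4269 cells after filters. Of these, 3779 (88.5%) received a class from lineage markers. At least 10 cells per library were found for microglia (426 to 944 cells per library), monocyte/macrophage (46 to 195), granulocyte (45 to 68), T cell (108 to 168), B cell (20 to 45) and choroid plexus (34 to 125). Each class expressed its own markers, and neuron markers summed to at most 3.82 CPM in any class. Markers of the implanted tumor cells summed to at most 7.19 CPM outside choroid plexus cells, where they reached 49.7 CPM. The monocyte/macrophage class had a different makeup in each library. Nonclassical monocytes, taken as cells with at least 2 of Ear2, Ace, Treml4 and Adgre4, were 93.5% and 71.2% of it in niacin replicates 1 and 2 and 13.3% in the vehicle library. Median mitochondrial share was 5.17% in the vehicle library and 2.70% and 3.44% in the niacin libraries. In sums over cells, fewer cells expressing a gene and less RNA per expressing cell cannot be told apart.

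**Figure D1:**
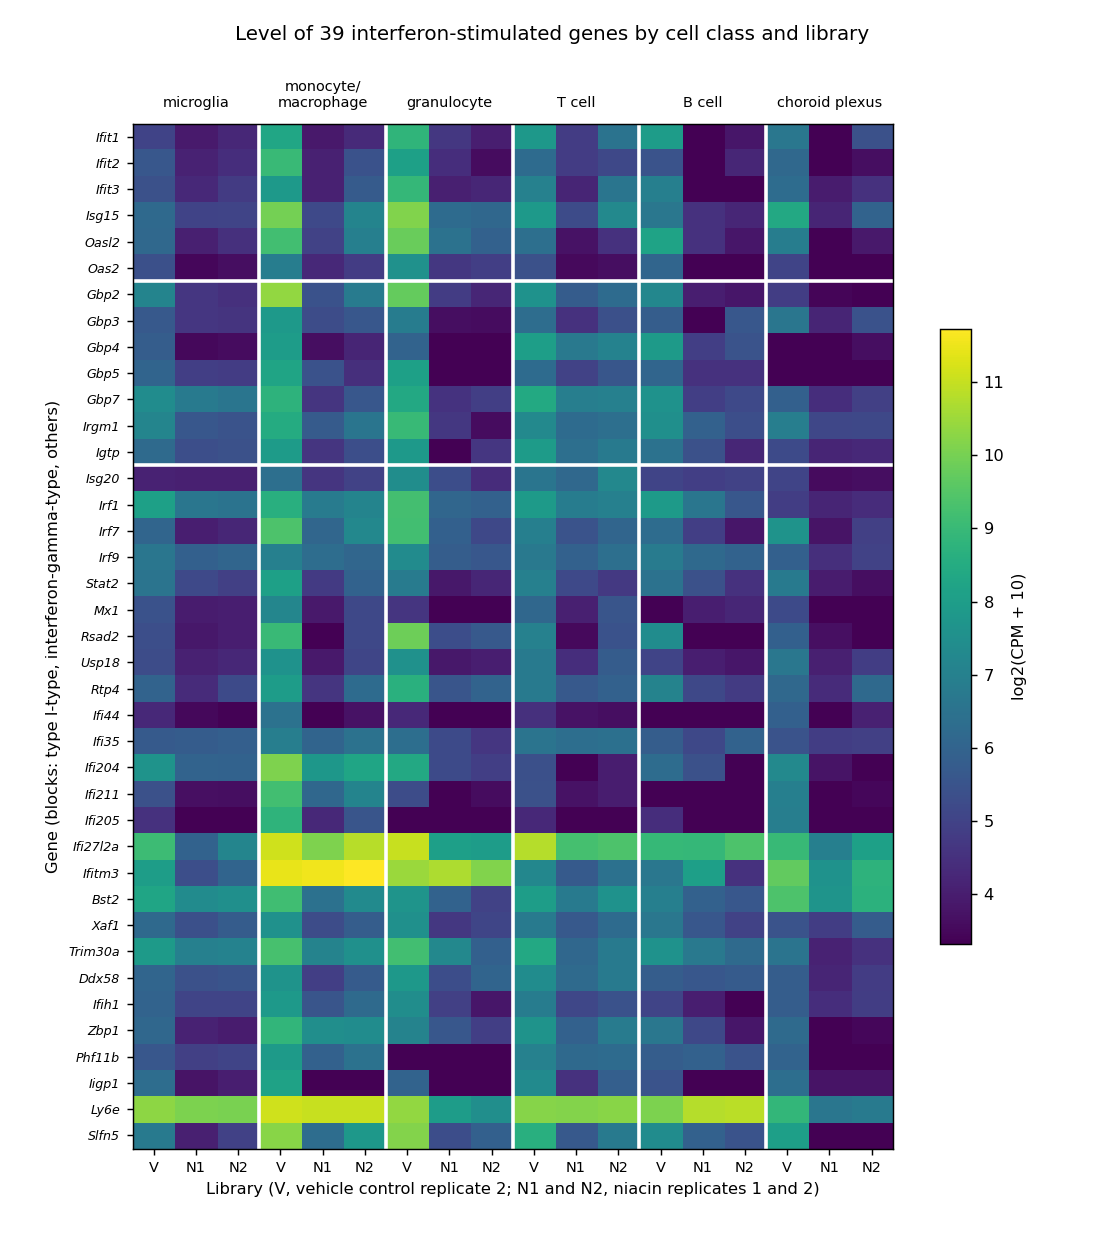
Level of each of the 39 genes (rows, in blocks of type I-type, interferon-gamma-type and other genes) in 6 cell classes and 3 libraries (columns: V, vehicle control replicate 2; N1 and N2, niacin replicates 1 and 2), as log2(CPM + 10) by color. The V column is the brightest in most rows of every class, while Ly6e and Ifitm3 are bright in monocyte/macrophage cells of all 3 libraries.

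Most of the genes were higher in monocyte/macrophage cells than in microglia, but not evenly across libraries. In the vehicle library and niacin replicates 1 and 2, the type I-type genes summed to 2726, 77.5 and 350 CPM, against 250, 52.5 and 75.4 CPM in microglia. The interferon-gamma-type genes summed to 3079, 172 and 316 CPM, against 631, 220 and 201 CPM, and were thus lower in niacin replicate 1. In edgeR's quasi-likelihood test across 9490 genes, with the library as a block, 29 of the 38 genes that passed the count filter were higher in monocyte/macrophage cells than in microglia at an adjusted p under 0.05, and 0 were lower. Of all genes tested, 19.6% were higher and 26.0% lower. The median log2 fold change of the 38 genes was 1.87, beside -0.20 over all genes. At an unadjusted p under 0.05, and by DESeq2, again 0 of the 38 were lower. By DESeq2 21 of the 38 were higher. Of the 29, 20 were higher in each of the 3 libraries. Without the vehicle library 21 of 37 were higher and 1, Gbp7, was lower, beside 1994 and 2245 of 9966 genes. With nonclassical monocytes alone as the class, an alternative added after the data were seen, 28 were higher, beside 1790 of 8596 genes.

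The 6 type I-type genes were called higher in monocyte/macrophage cells by edgeR, and by DESeq2 all but Ifit1 (1.37, adjusted p = 0.28) and Ifit3 (1.16, adjusted p = 0.28). Isg15 stood at 996 CPM in the vehicle library and 26.6 and 129.5 CPM in niacin replicates 1 and 2 in monocyte/macrophage cells, against 62.6, 22 and 22.7 CPM in microglia of the same libraries in that order. It was higher in each of the 3 libraries, with a log2 fold change of 2.52 ± 0.54 (SE, adjusted p = 6.10e-04). Oasl2, a member of the OAS family, stood at 578, 21.8 and 114 CPM in monocyte/macrophage cells and 62.2, 6.83 and 12.2 CPM in microglia, a log2 fold change of 2.99 ± 0.44 (SE, adjusted p = 1.14e-05). Oas2 was higher by 2.34 ± 0.39 (SE, adjusted p = 4.94e-05) on the log2 scale. The 3 Ifit genes were less even across libraries. Ifit1 stood at 306, 4.84 and 10.1 CPM in monocyte/macrophage cells and 22.4, 5.37 and 9.18 CPM in microglia, so that the gap lay in the vehicle library and the levels of both classes overlapped in the niacin libraries. Its log2 fold change of 2.27 ± 0.69 (SE, adjusted p = 0.0101) became 0.10 (adjusted p = 0.94) without the vehicle library. Ifit2 (log2 fold change 2.51 ± 0.55 SE, adjusted p = 7.38e-04) and Ifit3 (1.65 ± 0.58 SE, adjusted p = 0.0237) also lost their calls without it, at 1.23 (adjusted p = 0.059) and 0.97 (adjusted p = 0.075).

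Among the interferon-gamma-type genes 4 of 7 were called higher. Gbp2 stood at 1319 CPM in the vehicle library and 33.9 and 103 CPM in niacin replicates 1 and 2 in monocyte/macrophage cells, against 130.3, 15.4 and 12.5 CPM in microglia. All 3 libraries showed the same direction, with a log2 fold change of 2.79 ± 0.48 (SE, adjusted p = 6.73e-05). Gbp3 was higher by 1.82 ± 0.42 (SE, adjusted p = 0.00126) and Gbp4 by 2.57 ± 0.59 (SE, adjusted p = 0.00123), the latter losing its call without the vehicle library (1.77, adjusted p = 0.087). Irgm1, which regulates the other immunity-related GTPases, was higher by 1.12 ± 0.44 (SE, adjusted p = 0.0432), and lost its call when either niacin library was left out (adjusted p = 0.068 without replicate 1 and 0.12 without replicate 2), with nonclassical monocytes alone (adjusted p = 0.071) and by DESeq2 (adjusted p = 0.15). Gbp7 differed in direction between libraries. It stood at 419 CPM in the vehicle library and 14.5 and 38.7 CPM in niacin replicates 1 and 2 in monocyte/macrophage cells, against 159.9, 99.6 and 86.7 CPM in microglia. It was thus the higher of the pair in the vehicle library and the lower in both niacin libraries, and its adjusted p was 0.613. Gbp5 (adjusted p = 0.0722) and Igtp (adjusted p = 0.241) did not pass either.

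The 3 largest differences from microglia in the same direction in every library belonged to Ifi205, Ifitm3 and Ifi211, genes outside both lists. Ifi205, Ifi204 and Ifi211 encode HIN-200 proteins, a family of nuclear DNA-binding proteins. Ifi205 had 429, 9.68 and 37 CPM in monocyte/macrophage cells and 13.1, 0 and 0 CPM in microglia, a log2 fold change of 5.73 ± 0.52 (SE, adjusted p = 3.42e-08). Ifi211 was higher by 4.78 ± 0.43 (SE, adjusted p = 2.88e-08) and Ifi204 by 2.36 ± 0.47 (SE, adjusted p = 2.82e-04), each in all 3 libraries. Ifitm3, which blocks viral fusion with the cell, was level across libraries in monocyte/macrophage cells. It stood at 2803, 2999 and 3399 CPM in monocyte/macrophage cells and 247, 30.5 and 55.5 CPM in microglia, higher by 5.16 ± 0.69 (SE, adjusted p = 3.09e-06). Ly6e, a membrane protein that restricts coronavirus entry, was likewise level across libraries in monocyte/macrophage cells (2224, 2086 and 2081 CPM), but its difference from microglia did not pass (adjusted p = 0.0682). Ifi27l2a was higher by 3.34 ± 0.45 (SE, adjusted p = 3.45e-06).

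The regulators of the response differed among themselves. Irf7, the transcription factor that amplifies type I interferon production, stood at 655, 58.1 and 141 CPM in monocyte/macrophage cells and 57.5, 6.35 and 8.52 CPM in microglia, higher by 3.68 ± 0.42 (SE, adjusted p = 3.52e-07). Usp18, which removes ISG15 from proteins and dampens IFNAR2 signaling, was higher by 1.90 ± 0.42 (SE, adjusted p = 8.80e-04), but not without the vehicle library (0.95, adjusted p = 0.18). Stat2 was higher by 1.12 ± 0.37 (SE, adjusted p = 0.0162), and lost its call without the vehicle library (adjusted p = 0.073), without niacin replicate 2 (adjusted p = 0.13), with nonclassical monocytes alone (adjusted p = 0.14) and by DESeq2 (adjusted p = 0.080). Irf9, Irf1 and the surface tether Bst2 were not called, with adjusted p = 0.16, 0.109 and 0.754. Irf9 stood at 118, 70.2 and 58.9 CPM in monocyte/macrophage cells and 87.6, 50.0 and 56.4 CPM in microglia.

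In T cells 19 of 38 genes were higher than in microglia and 1 was lower, beside 21.2% of all genes higher and 25.5% lower. Of the 19, 17 were higher in each of the 3 libraries. The median log2 fold change was 0.92 for the 38 genes and -0.08 for all genes. The split between the lists ran through single genes. Gbp4 showed the largest difference, with 253, 94.9 and 123 CPM in T cells and 45.7, 1.22 and 2.19 CPM in microglia, higher by 4.67 ± 0.59 (SE, adjusted p = 7.77e-07). Isg20, a 3′ exonuclease, was higher by 3.89 ± 0.47 (SE, adjusted p = 4.39e-07) and Zbp1, a sensor of Z-form nucleic acid, by 2.93 ± 0.48 (SE, adjusted p = 2.44e-05). Of the type I-type list Ifit1 (2.92 ± 0.66 SE, adjusted p = 8.45e-04), Isg15 (1.77 ± 0.53 SE, adjusted p = 0.00879) and Ifit3 (1.72 ± 0.57 SE, adjusted p = 0.0155) were called higher, Ifit3 not by DESeq2 (adjusted p = 0.13), and Ifit2, Oasl2 and Oas2 were not called. Of the interferon-gamma-type list Gbp2 (1.68 ± 0.49 SE, adjusted p = 0.00715), Gbp4 and Igtp (1.61 ± 0.44 SE, adjusted p = 0.00411) were called. Irf7 was higher by 2.15 ± 0.44 (SE, adjusted p = 2.82e-04) on the log2 scale, Usp18 by 1.78 ± 0.42 (SE, adjusted p = 0.00131) and Ifi27l2a by 2.51 ± 0.44 (SE, adjusted p = 5.23e-05). Ifi204 was the only gene of the 38 called lower, at 31.6, 0 and 5.84 CPM in T cells and 189, 53.5 and 52.9 CPM in microglia (-3.26 ± 0.62 SE, adjusted p = 1.52e-04). The count of higher genes was 12 of 39 without niacin replicate 2, beside 1345 of 9455 over all genes. Isg15 (0.95, adjusted p = 0.28), Ifit3, Gbp2 and Usp18 lost their calls there. In the fit with no replicate block 6 of 38 were higher, beside 1644 of 9490, and 0 were lower, beside 2101.

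In granulocytes 20 of 38 genes were higher than in microglia and 1 was lower, beside 18.5% of all genes higher and 31.1% lower. Of the 20, 11 were higher in each of the 3 libraries. The median log2 fold change was 0.91 for the 38 genes and -0.52 for all genes. Of the type I-type list 6 of 6 genes were called higher by edgeR, and of the interferon-gamma-type list 1 of 7, Gbp2. By DESeq2 Ifit2 (1.57, adjusted p = 0.13) and Ifit3 (1.79, adjusted p = 0.075) were not called, and Ifit3 was higher in CPM in only 1 of 3 libraries. Oasl2 stood at 899 CPM in the vehicle library and 79.7 and 51.5 CPM in niacin replicates 1 and 2 in granulocytes, higher than microglia in each library by 3.92 ± 0.46 (SE, adjusted p = 4.29e-07). Rsad2, which makes a chain-terminating nucleotide, was higher by 4.22 ± 0.63 (SE, adjusted p = 9.85e-06), with 923, 29.6 and 40.8 CPM in granulocytes. Isg15 was higher by 3.07 ± 0.55 (SE, adjusted p = 9.29e-05), Oas2 by 3.38 ± 0.44 (SE, adjusted p = 1.44e-06) and Irf7 by 3.47 ± 0.45 (SE, adjusted p = 1.45e-06). Ifit1 (3.04 ± 0.74 SE, adjusted p = 0.00167), Ifit2 (1.80 ± 0.64 SE, adjusted p = 0.0242), Ifit3 (2.33 ± 0.62 SE, adjusted p = 0.00363) and Gbp2 (2.06 ± 0.52 SE, adjusted p = 0.00237) were called with all 3 libraries and not without the vehicle library (adjusted p = 0.057, 0.60, 0.83 and 0.16). Usp18, Irf1 and Irf9 were called higher at 1.84, 0.82 and 0.80 but for each of them too only 1 of 3 libraries was higher in CPM, and Usp18 and Irf1 lost the call without the vehicle library. Irf1 also lost it without either niacin library, and Irf9 without niacin replicate 1. Ifitm3 was higher by 4.79 ± 0.69 (SE, adjusted p = 6.58e-06) at a similar level in every library (1419, 1649 and 1110.3 CPM), and Ifi27l2a by 2.39 ± 0.44 (SE, adjusted p = 1.15e-04). Phf11b had 0 UMIs in the granulocytes of each library and was at least 9.49-fold lower than in microglia, taking 3 UMIs over all granulocytes as the limit that a count of 0 allows. Without the vehicle library 14 of 37 genes were higher, beside 1931 of 9966 over all genes. In that fit 5 were lower, namely Phf11b, Gbp5, Gbp7, Bst2 and Ly6e, a smaller share than the 2621 of 9966 over all genes. The fit with no replicate block called 12 of 38 higher, beside 1592 of 9490.

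**Figure D2:**
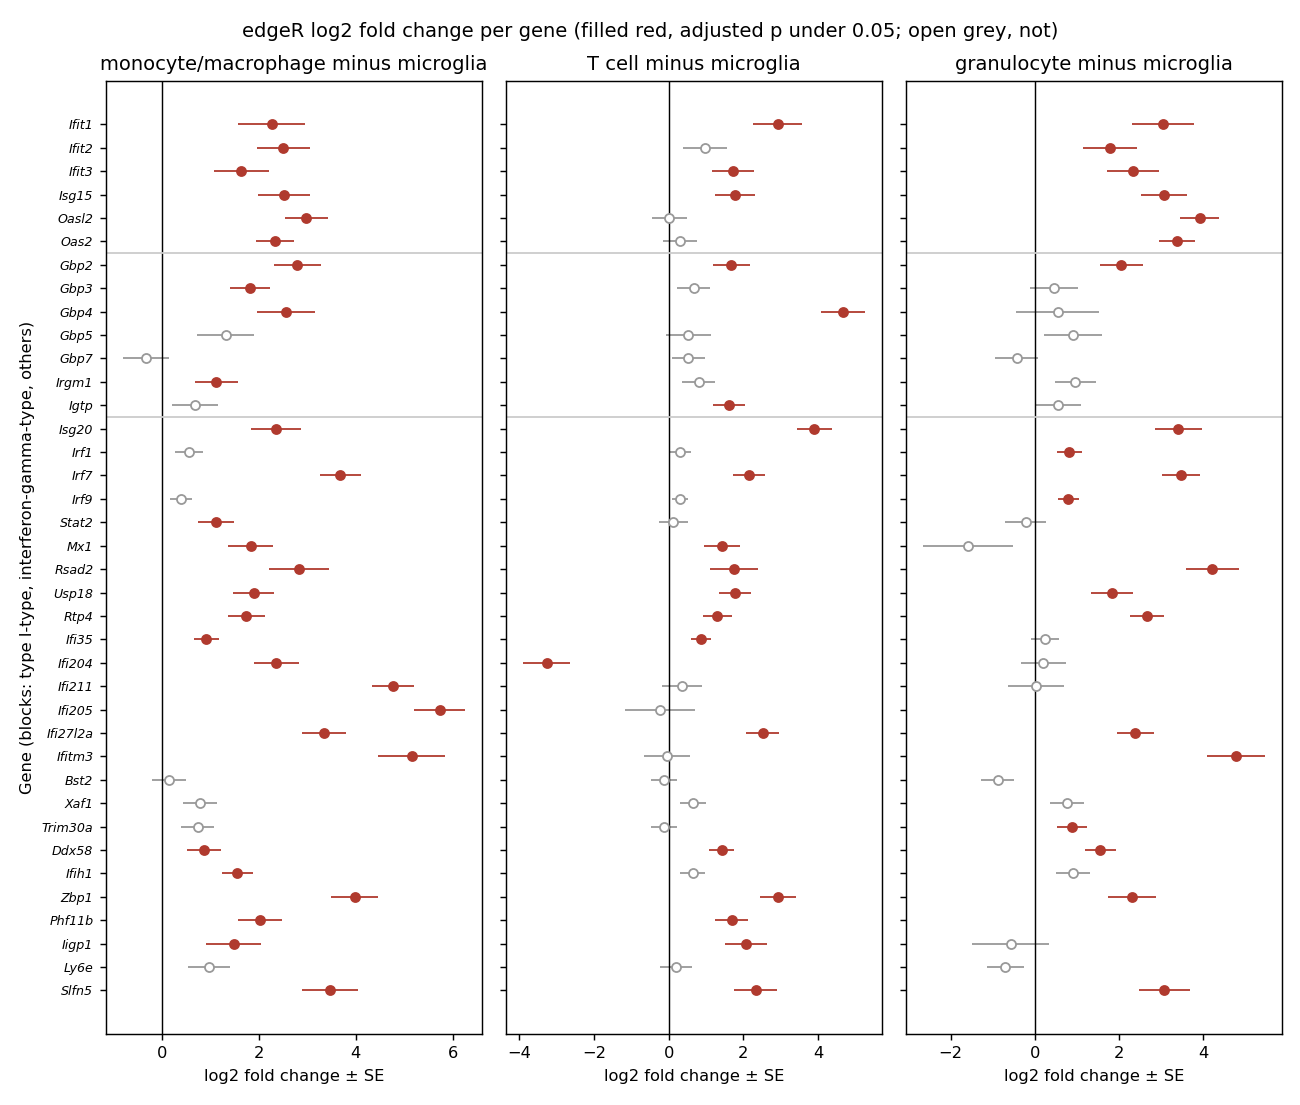
Log2 fold change of each gene tested in monocyte/macrophage cells, T cells and granulocytes against microglia, with the standard error from edgeR, filled red at an adjusted p under 0.05 and open grey otherwise. Genes with 0 UMIs in all libraries of the class, Ifi205 and Phf11b in granulocytes, are left out. In granulocytes all 6 type I-type genes are filled red and 1 of the 7 interferon-gamma-type genes is.

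The rest of the pathway was read from a list of 61 further genes, of which 52 were tested. No UMI of Ifna1, Ifna2 or Ifna4 was found in any of the classes described, and Ifnb1 had 2 UMIs, both in microglia of the vehicle library. Ifng was found in T cells at 80.1, 86.7 and 65.4 CPM, higher than in microglia by 5.96 ± 0.54 (SE, adjusted p = 4.07e-08). These are levels within T cells. T cells numbered 168, 108 and 131 and natural killer cells 87, 7 and 12 in the vehicle library and niacin replicates 1 and 2. The total of Ifng per library was not compared. In natural killer cells Ifng had 43 UMIs over 87 cells in the vehicle library and 16 UMIs over 12 cells in niacin replicate 2. Of the 4 receptor genes, 0 were called in monocyte/macrophage cells against microglia by edgeR, beside 19.6% of all genes higher and 26.0% lower. With 4 genes, a count of 0 cannot be told from those shares. Ifnar2, Ifngr1 and Ifngr2 were each lower in CPM in all 3 libraries. In T cells Ifngr2 was lower, at -3.71 ± 0.31 (SE, adjusted p = 1.67e-09) on the log2 scale, as was Ifnar2 at -1.45 ± 0.23 (SE, adjusted p = 1.90e-05), and in granulocytes Ifngr1 was lower at -1.70 ± 0.34 (SE, adjusted p = 2.75e-04) and Ifnar2 at -0.73 ± 0.25 (SE, adjusted p = 0.0173). Of the 6 sensors of nucleic acid tested, 3 were lower in monocyte/macrophage cells, 6 in T cells and 6 in granulocytes, beside 26.0%, 25.5% and 31.1% of all genes, and 0 were higher in any of them. Of 29 other interferon-induced genes tested, 23, 17 and 10 were higher in monocyte/macrophage cells, T cells and granulocytes, beside 19.6%, 21.2% and 18.5% of all genes, and 0, 2 and 1 were lower.

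The 2 lists were then set beside each other within each class. For every class and library, log2(CPM + 10) was averaged over the 6 type I-type genes and over the 7 interferon-gamma-type genes, and the difference was taken. Granulocytes leaned to the type I-type list, with a difference of 0.97 ± 0.16 (SD, n = 3 libraries), and each library was on that side at 0.90, 1.15 and 0.86. In these cells 3 and 2 of the 7 interferon-gamma-type genes had 0 UMIs in niacin replicates 1 and 2. Microglia leaned to the interferon-gamma-type list at -0.78 ± 0.19, and T cells did so at -0.97 ± 0.51. B cells stood at -0.71 ± 0.57, with a vehicle library at -0.05 and niacin libraries at -0.99 and -1.09. Of the 6 type I-type genes, 4 and 2 had 0 UMIs in B cells of niacin replicates 1 and 2, and 4 and 1 in choroid plexus cells. Genes at 0 take the level of the added 10 CPM, so such differences depend on that setting. Monocyte/macrophage cells had no lean beyond the spread between libraries, at -0.10 ± 0.40, and neither did choroid plexus cells at 0.38 ± 0.94. The lean is a difference of log levels between gene sets and does not say which set was more abundant, since the genes differ in their ordinary level. The difference between granulocytes and microglia was larger than the spread of either class.

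**Figure D3:**
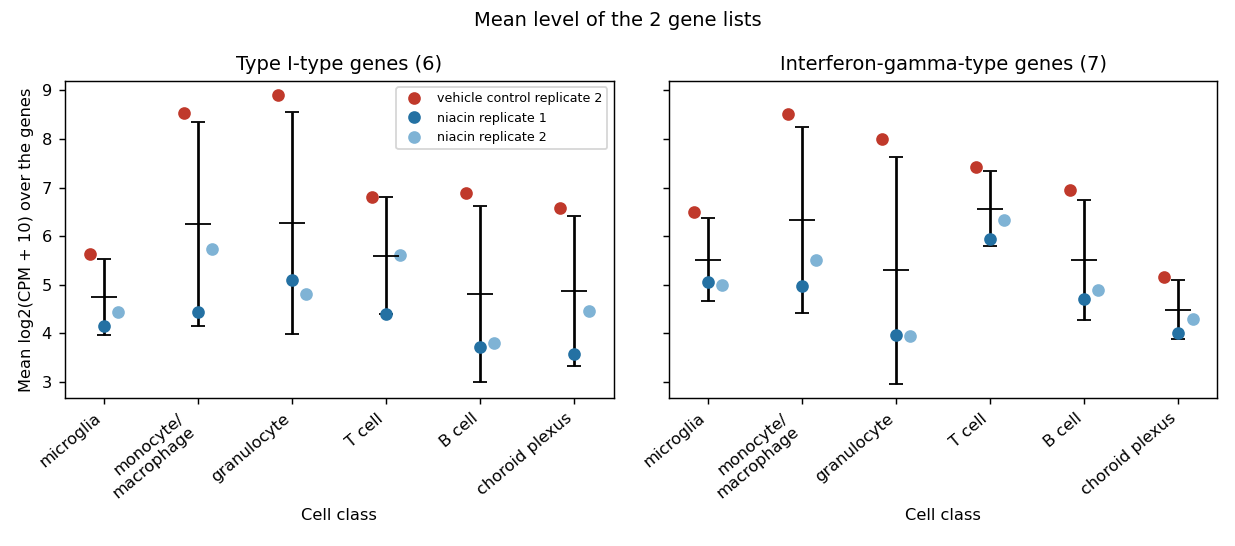
Mean log2(CPM + 10) over the type I-type genes (left) and the interferon-gamma-type genes (right) in 6 cell classes. Points are libraries, the black bar is the mean of the 3 libraries with its SD, and the red vehicle point lies above both blue niacin points in every class and both panels.

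Both lists were higher in the vehicle library in every one of these classes. In monocyte/macrophage cells 34 of 39 genes were at least 2-fold higher in the vehicle library than in each niacin library on the CPM + 10 scale, beside 6.8% of 7528 genes, and 0 were at least 2-fold lower, beside 2.82%. Gbp2 stood at 1319 CPM (2162 UMIs, 95% interval 1264 to 1376) in the vehicle library, 33.9 CPM (14 UMIs, 95% interval 18.5 to 56.9) and 103 CPM (61 UMIs, 95% interval 78.5 to 132) in the niacin libraries. Intervals are exact Poisson intervals and cover counting error only. Iigp1, another immunity-related GTPase, had 460 UMIs in the vehicle library and 0 in both niacin libraries, and was at least 94.3-fold higher against a limit of 3 UMIs over both. Genes were compared at a mean of at least 10 CPM over the 3 libraries. Iigp1, Ifit1, Gbp4 and Ifi44, at the least, averaged under 10 CPM over the niacin libraries. They thus entered this count through the vehicle library alone. The 5 genes that did not reach 2-fold were Ifi27l2a, Ifi35, Ifitm3, Irf9 and Ly6e. Since nonclassical monocytes made up most of this class in the niacin libraries and few of it in the vehicle library, the same was read in nonclassical monocytes alone (26, 43 and 42 cells). There 32 of 38 genes were at least 2-fold higher in the vehicle library, beside 4.90% of 7301 genes, and Gbp2 stood at 1109.5 CPM (260 UMIs, 95% interval 979 to 1253), 24.4 CPM (9 UMIs, 95% interval 11.2 to 46.3) and 43.2 CPM (17 UMIs, 95% interval 25.2 to 69.2). Isg15 stood at 495, 16.3 and 55.9 CPM and Ifitm3 at 3111, 3037 and 3777 CPM in the same cells.

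In microglia 22 of 36 genes were at least 2-fold higher in the vehicle library, beside 1.24% of 8537 genes, and 0 were lower, beside 0.281%. Gbp4 and Irf7, at the least, were under 10 CPM in both niacin libraries and so entered this count through the vehicle library alone. The count was smaller within 1 cluster. Clusters made without the 39 genes divided nearly all microglia into a main cluster (cluster 3) and a second, unnamed one (cluster 1). Cluster 1 was led by C4b, Cp, Apoe, Mrc1, Gm4951 and Ccl12. It held 32.9% of the microglia of the vehicle library and 7.54% and 5.83% of those of niacin replicates 1 and 2. Other interferon-induced genes were not left out of the clustering, so the clusters may themselves part microglia by interferon response, which was not tested. A smaller count within 1 cluster is thus not an independent reading. Within the main cluster alone, 3 of 23 genes, Ifi27l2a, Ifitm3 and Irf1, were at least 2-fold higher in the vehicle library, beside 0.305% of 8517 genes. Irf1 stood at 190.2, 85.4 and 83.2 CPM there and Isg15 at 19.2, 13.8 and 11.5 CPM.

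In the second microglia cluster the lists parted. It held 140, 62 and 55 cells in the vehicle library and niacin replicates 1 and 2. The mean log2(CPM + 10) of the type I-type genes was 6.36, 6.15 and 6.34, close in all libraries, while that of the interferon-gamma-type genes was 7.04, 5.43 and 5.46. Isg15 stood at 109 CPM (112 UMIs, 95% interval 89.7 to 131), 175 CPM (37 UMIs, 95% interval 123 to 242) and 159 CPM (49 UMIs, 95% interval 118 to 211), lowest in the vehicle library with overlapping intervals. Ifit3 was also lowest there, at 67.1, 128 and 111 CPM. Gbp2 stood at 224 CPM (230 UMIs, 95% interval 196 to 255), 66.3 CPM (14 UMIs, 95% interval 36.3 to 111) and 48.8 CPM (15 UMIs, 95% interval 27.3 to 80.4), highest in the vehicle library. Gbp4 had 84 UMIs in the vehicle library and 0 and 1 in the niacin libraries. All 7 interferon-gamma-type genes were highest in the vehicle library. The type I-type list was not uniform. The 3 Ifit genes and Isg15 were lowest there, whereas Oas2 (66.2, 0 and 16.3 CPM) and Oasl2 (115, 66.3 and 68.3 CPM) were highest, so the close means hide opposite orders. Markers of monocytes and macrophages summed to 1096, 1256 and 1525 CPM in these cells, and their median depth was 6590, 2630 and 4795 UMIs. Whether depth had a part in the difference was not tested.

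Granulocytes and T cells showed the same direction. In granulocytes 34 of 35 genes were at least 2-fold higher in the vehicle library, beside 23.7% of 5971 genes, and 0 were lower, beside 1.93%. The vehicle granulocytes stood apart as a whole. All genes compared had a median difference of 0.64 on the log2 scale, the genes of the list 3.07, and granulocyte markers summed to 195164 CPM in the vehicle library against 422486 and 467512 CPM in the niacin libraries. Isg15 stood at 1123 CPM (231 UMIs, 95% interval 983 to 1277), 66 CPM (29 UMIs, 95% interval 44.2 to 94.8) and 60.1 CPM (28 UMIs, 95% interval 40.0 to 86.9). Gbp5 had 55 UMIs in the vehicle library and 0 in both niacin libraries, at least 80.6-fold higher. Gbp4 and Iigp1 also had 0 UMIs in both niacin libraries. At the least, Gbp4, Gbp5 and Iigp1 thus entered the count through the vehicle library alone. Ifitm3 was the gene that did not reach 2-fold. In T cells 16 of 37 genes were at least 2-fold higher, beside 3.32% of 7871 genes, and 0 were lower, beside 0.508%. Of these 16, Ifit1 stood at 214, 18 and 82.9 CPM and Oasl2 at 73.8, 3.27 and 12.8 CPM. Oasl2 averaged under 10 CPM over the niacin libraries and so entered this count through the vehicle library alone. Isg15 at 223, 27.8 and 145 CPM did not pass, niacin replicate 2 being within 2-fold of the vehicle library.

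Free RNA can place transcripts of one class in droplets of another, so levels in the vehicle library were also expressed relative to monocyte/macrophage cells of that library. Cxcl9, a chemokine gene that led a cluster of macrophages with 299 of its 338 cells in that library, stood at 0.370% of its monocyte/macrophage level in T cells and 0.805% in B cells. Cxcl9 is itself interferon-induced, so its level cannot separate free RNA from a cell's own transcripts. Ifit1 stood at 70.0% and 78.7% of its monocyte/macrophage level in the same cells and Isg15 at 22.4% and 9.21%. In microglia Cxcl9, Ifit1 and Isg15 stood at 7.01%, 7.34% and 6.29%. The monocyte/macrophage markers Lyz2 and Arg1 stood at 6.96% and 0.695% there, so markers of that class differed among themselves. The part of free RNA in any of these classes was not tested.

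**Figure D4:**
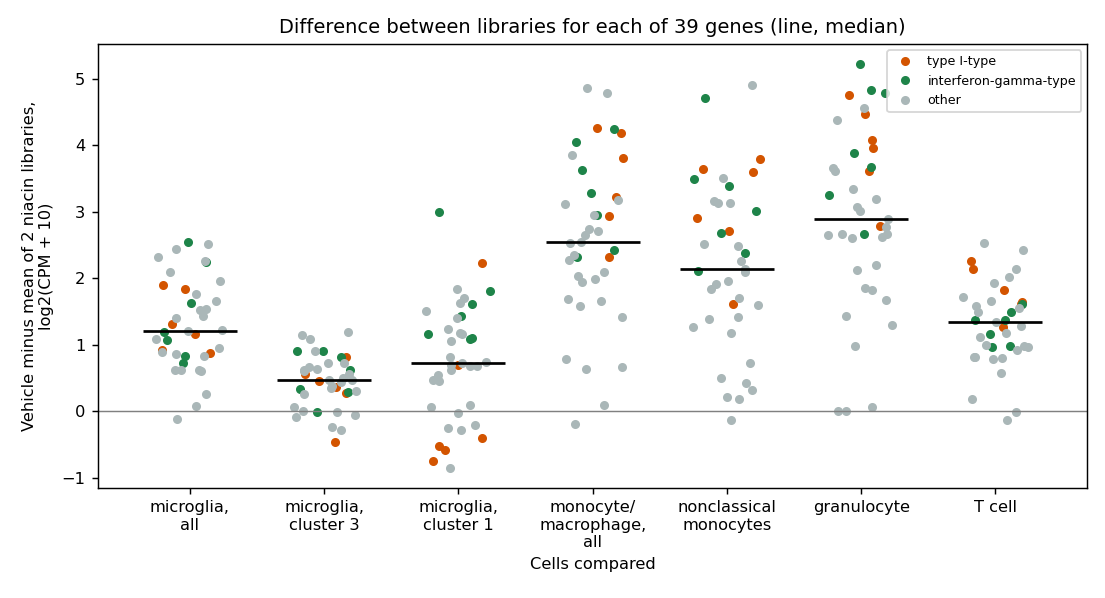
Difference between the vehicle library and the mean of the 2 niacin libraries, as log2(CPM + 10), for each of the 39 genes in 7 sets of cells, with points colored by list and the black line at the median. The median is 1.21 in all microglia and 0.47 in the main microglia cluster, 2.55 in all monocyte/macrophage cells and 2.13 in nonclassical monocytes, and in microglia of cluster 1 all 7 green interferon-gamma-type points lie above 0 while 4 of the 6 orange type I-type points lie below it.

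The same genes were counted per cell. Each cell was thinned to 2000 UMIs, shallower cells were left out, and a cell was counted when it held at least 3 of 17 type I-type genes (the 6 above with Mx1, Rsad2, Usp18, Ifi44, Irf7, Rtp4, Xaf1, Zbp1, Trim30a, Ddx58 and Ifih1). Of monocyte/macrophage cells 77.8% did so in the vehicle library (exact binomial 95% interval 70.6 to 84.1, 158 cells), 7.32% in niacin replicate 1 (1.54 to 19.9, 41 cells) and 20.8% in niacin replicate 2 (10.8 to 34.1, 53 cells). Of microglia 14.9% (10.9 to 19.6, 282 cells), 1.98% (1.06 to 3.36, 657 cells) and 2.91% (1.76 to 4.51, 652 cells) did so. Thinning left out 144, 165 and 292 microglia and 37, 5 and 6 monocyte/macrophage cells. Without thinning, the shares were 88.7%, 41.3% and 61.0% in monocyte/macrophage cells and 33.3%, 8.27% and 11.5% in microglia. These intervals cover counting error over the cells of 1 library and not the spread between libraries. T cells stood at 5.00% (1.38 to 12.3) and 19.6% (12.7 to 28.2) in niacin replicates 1 and 2 and 41.7% (33.0 to 50.8) in the vehicle library. Choroid plexus cells, which are epithelial, stood at 1.69% and 4.31% in the niacin libraries and 23.5% in the vehicle library.

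**Figure D5:**
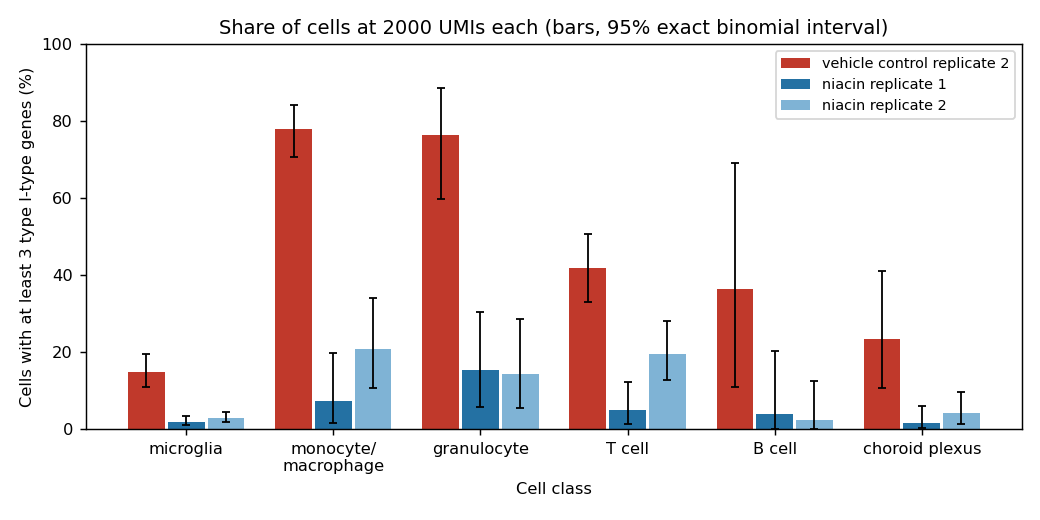
Share of cells with at least 3 of 17 type I-type genes after thinning to 2000 UMIs, by cell class and library, with exact binomial 95% intervals. The vehicle bar is the tallest in every class, from 14.9% in microglia to 77.8% in monocyte/macrophage cells.

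The remaining classes held few cells in 1 or more libraries and are given as values. Natural killer cells (87, 7 and 12 cells in the vehicle library and niacin replicates 1 and 2) were few in the niacin libraries. In the vehicle library Isg15 stood at 46.5 CPM (11 UMIs, 95% interval 23.2 to 83.2) and Ifit1 at 25.4 CPM (6 UMIs, 95% interval 9.31 to 55.2), while Gbp4 stood at 232 CPM (55 UMIs, 95% interval 175 to 303). These Isg15 and Ifit1 levels were 4.67% and 8.30% of those of monocyte/macrophage cells of that library, with Cxcl9 at 1.19%. The median depth of these vehicle cells was 1480 UMIs, and 8 of the 32 that reached 2000 UMIs held at least 3 of the 17 type I-type genes after thinning (exact binomial 95% interval 11.5% to 43.4%). Basophil/mast cells (5, 28 and 35 cells) had 0 to 2 UMIs of Ifit1, Ifit2, Ifit3, Isg15, Oasl2 and Oas2 each in any library. Erythroid cells (4, 67 and 54 cells) differed from gene to gene. Isg15 stood at 407 CPM (286 UMIs, 95% interval 361 to 457) and 261 CPM (187 UMIs, 95% interval 225 to 301) in niacin replicates 1 and 2, Isg20 at 342 CPM (240 UMIs, 95% interval 299.7 to 388) and 314 CPM (225 UMIs, 95% interval 274 to 358), and Rsad2 at 383 CPM (269 UMIs, 95% interval 338 to 431) and 252 CPM (181 UMIs, 95% interval 217 to 292). In the same cells Ifit1 stood at 9.96 and 9.76 CPM and Oasl2 at 8.54 and 8.37 CPM. Erythroid cells held 87.9% and 65.6% of all Rsad2 UMIs of the kept cells of niacin replicates 1 and 2, and 3.32% of those of the vehicle library. In choroid plexus cells Slfn5 had 68 UMIs in the vehicle library and 0 in both niacin libraries, at least 165-fold higher, and Gbp5 had 0 UMIs in each library.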

How the data were processed

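The authors prepared the libraries with Chromium 3′ v3.1 kits, and per the submitters' processing notes Cell Ranger 3.1, STAR and mm10 were used. The deposited files hold raw UMI counts per gene and barcode for the 3 libraries, with no normalization. A barcode needed at least 200 detected genes and at most 20% of its UMIs from mitochondrial genes. A barcode found in several libraries was kept only in the library holding at least 5 times the UMIs of any other copy. A cell took the class with the highest share of its markers detected, of 18 marker lists, with at least 3 markers detected and a lead of 0.1 over the next class, and 490 cells stayed unassigned. Scrublet in scanpy 1.11.5 marked 19 cells (0.445%), which is too small a share to rely on, and no cell was dropped as a doublet. Removing the 5% highest scores was an alternative. Clusters at resolution 0.5 were made without the 39 genes, but other interferon-induced genes were not left out.

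Counts were summed per class and library and fitted over 6 classes with edgeR 4.0.16 (glmQLFit, TMM, filterByExpr, library as a block, 10 residual degrees of freedom) in R 4.3.3, with Benjamini-Hochberg adjustment over all genes, threshold 0.05. DESeq2 1.42.0 was an alternative. The scripts were tested on simulated data. Replicates are pooled-tissue libraries. With the library as a block, p-values measure how differences between classes varied from library to library, estimated over all 6 classes. A level shared by all classes of a library does not count in them. Named were the genes of both lists, then Irf7, Irf1, Irf9, Stat2, Ifi27l2a, Ifitm3, Bst2 and Usp18, then the 3 largest called folds in each direction with the same direction in all 3 libraries. Other genes were named after their values were seen. Vehicle and niacin values were compared over genes with a mean of at least 10 CPM, with a pseudocount of 10 CPM and no test. A gene could pass this filter through the vehicle library alone, and was then bound to count as higher there. The shares over all genes used the same filter. The 39 genes and all lists were chosen with earlier results of these data known.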

Additional observations from a re-analysis of the deposited data

Results flagged for a closer look

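Gbp5, which encodes a guanylate-binding protein, differed in direction between treatments when granulocytes were set against microglia. On the log2(CPM + 10) scale granulocytes were higher than microglia by 2.07 in the vehicle library and lower in niacin replicates 1 and 2, at -1.56 and -1.49, so that the vehicle library exceeded the mean of the niacin libraries by 3.60. Granulocytes held 55 UMIs of Gbp5 in the vehicle library and 0 in both niacin libraries. The difference rests on 1 vehicle library and was not tested.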

How the results depend on the processing

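For the 44 fold changes of named genes that passed the threshold, 701 alternatives were run. Of these, 648 kept the call, 53 lost it and 0 changed direction. Calls gained by named genes that had not passed were not counted. Losses were 19 with no replicate block, 12 without the vehicle library, 7 without niacin replicate 2, 3 without niacin replicate 1 and 7 with DESeq2. The others were 2 with cells thinned to 1000 UMIs, 2 with nonclassical monocytes alone and 1 with no filter beyond a count above 0. With no replicate block, where the library does not pair the classes, 20, 6 and 12 genes were higher in monocyte/macrophage cells, T cells and granulocytes. Over all 9490 genes 1537, 1644 and 1592 were higher there. In T cells 0 of the list were lower. Leaving out 1 library gave 21 to 28, 12 to 21 and 14 to 21 genes higher and 0 to 1, 1 to 1 and 1 to 5 lower. With cells thinned to 1000 UMIs, 17 and 11 were higher in monocyte/macrophage cells and T cells and 0 lower in granulocytes. In granulocytes 2 were lower with no filter, with only the 2 classes compared, and with all copies of shared barcodes. The DESeq2 test called 21, 15 and 18 genes higher in monocyte/macrophage cells, T cells and granulocytes and 0, 1 and 1 lower. DESeq2 size factors moved the granulocyte median of all genes from -0.52 to -0.34. The difference between lists became -1.06, 1.77 and -1.63 in microglia, granulocytes and B cells with a pseudocount of 1 CPM, -1.61, 1.39 and -1.73 as a ratio of summed CPM, -1.17 in microglia by cluster, 0.59 in granulocytes with broad lists, and 1.22 and -1.30 in granulocytes and B cells without shared barcodes. In choroid plexus cells it was -0.13 without the vehicle library. The microglia count of 22 genes higher in the vehicle library was 13 without shared barcodes, 13 without the highest doublet scores, 3 by cluster and 3 in the main cluster alone, an alternative chosen after seeing the data. The causes were not tested.

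Shares in the vehicle library and niacin replicates 1 and 2 depended on depth. In microglia they were 5.35%, 0.509% and 1.63% at 1000 UMIs, 33.3%, 8.27% and 11.5% not thinned, and 28.4%, 7.15% and 11.04% for at least 2 genes. In monocyte/macrophage cells they were 59.4%, 0% and 5.26% at 1000 UMIs and 88.7%, 41.3% and 61.0% not thinned, and 85.4% and 34.1% for at least 2 genes in the vehicle library and niacin replicate 1. Natural killer cells, under 10 cells in 1 library, were tested only by cluster and without niacin replicate 1. By cluster 3 of 39 genes were higher and 1 lower, beside 1225 and 1744 of 9884 over all genes. Without niacin replicate 1, 1 of 39 was higher and 4 lower, beside 736 and 1263 of 9698. None of these counts exceeded the share over all genes.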
